A study of Mus musculus with 8 samples.

Results

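The 10 endothelial transcription factor genes described here are Sox7, Sox17, Sox18, Erg, Fli1, Foxf2, Foxq1, Foxc1, Gata2 and Zfp366. They were chosen by gene symbol, and each symbol matched 1 of the 31053 gene rows of the single-cell count matrices. The libraries hold mRNA of dissociated cells from the cerebral cortex of mice aged 8 weeks, perfused with PBS, with brains of 3 mice in a pool. The 4 groups are wild type (WT) mice serving as controls for Lama4-/-, Lama4-/- mice, which lack the laminin α4 chain, WT mice serving as controls for Tek-Cre:Lama5-/-, and Tek-Cre:Lama5-/- mice, in which Cre under the Tek promoter deletes the laminin α5 gene. Tek drives Cre in endothelial cells, and also in blood cells that arise from them, while other cells of the vessel wall keep the gene. Each group was deposited as 2 samples, but both Lama4-/- samples hold identical values, so 7 distinct libraries were analysed and the Lama4-/- group counts as 1 library. The labels do not say whether 2 libraries of a group are separate pools or draws from 1 pool. Spread between libraries can therefore not be taken as spread between mice.

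The SOXF proteins SOX7, SOX17 and SOX18 are high mobility group factors that act together in artery formation and vessel maturation. ERG and FLI1 belong to the ETS family, which maintains endothelial identity and quiescence. FOXF2, FOXQ1 and FOXC1 are forkhead factors tied to brain vessels and the blood-brain barrier, and FOXF2 and FOXC1 also act in the mural cells, pericytes and smooth muscle, that wrap brain vessels. GATA2 is a zinc finger factor of endothelial and blood precursor cells, and ZFP366 is a zinc finger protein of endothelial and dendritic cells. Brain endothelial cells change along the vessel from artery through capillary to vein, an order called zonation, and laminins are chains of the basement membrane on which these cells sit.

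In GRCm38, the build called mm10 in the submitters' processing notes, and the GENCODE M21 annotation, all 10 are protein-coding genes. Foxq1 (chr13:31556134-31560976), Foxf2 (chr13:31625816-31631403) and Foxc1 (chr13:31806633-31812476) lie on the plus strand in 1 span of 256.3 kb, and 7 other genes are annotated inside it. Sox17 (chr1:4490931-4497354), Sox18 (chr2:181669836-181671640), Erg (chr16:95359169-95586593) and Fli1 (chr9:32422204-32542861) lie on the minus strand. Sox7 (chr14:63943673-63950732), Gata2 (chr6:88193891-88207032) and Zfp366 (chr13:99184823-99250656) lie on the plus strand. Foxq1 shares its first part with A530084C06Rik on the opposite strand, which averaged 8.73 CPM in endothelial-like cells (CPM are counts of molecules scaled to the same total in every library and cell class). The antisense gene Gm27201 inside Fli1 had 12 molecules in those cells over all libraries.

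RefSeq promoter windows on GRCm38.p6 were at hand for 4 of the 10 genes, 7 windows in all. Foxf2 and Foxc1 are shown because they are the forkhead pair that mural cells also held, and Erg because 1 of its 3 windows was the 1 of 7 to contain a searched core. Each line runs 5′ to 3′ on the gene's strand from 250 to 21 bases before the RefSeq start, at chr13:31625566-31625795 (plus strand) for Foxf2, chr13:31806396-31806625 (plus) for Foxc1 and chr16:95459369-95459598 (minus) for Erg. Capitals mark the match to the SOX core ACAATG, read here as CATTGT, and to the GATA core AGATAA, read as TTATCT.
Foxf2: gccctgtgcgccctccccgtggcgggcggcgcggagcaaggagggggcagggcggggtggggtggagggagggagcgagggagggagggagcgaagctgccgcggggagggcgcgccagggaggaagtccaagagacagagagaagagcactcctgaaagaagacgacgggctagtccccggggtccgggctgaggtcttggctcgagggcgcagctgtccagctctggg
Foxc1: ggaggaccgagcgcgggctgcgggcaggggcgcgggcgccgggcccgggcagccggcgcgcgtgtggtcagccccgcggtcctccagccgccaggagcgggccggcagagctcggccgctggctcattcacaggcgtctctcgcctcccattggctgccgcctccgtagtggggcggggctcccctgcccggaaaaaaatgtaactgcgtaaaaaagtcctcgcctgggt
Erg: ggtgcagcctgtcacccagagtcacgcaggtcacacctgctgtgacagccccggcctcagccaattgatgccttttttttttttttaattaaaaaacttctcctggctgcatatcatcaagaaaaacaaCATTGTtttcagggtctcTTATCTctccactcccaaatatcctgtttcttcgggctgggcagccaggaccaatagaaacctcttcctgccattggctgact
Each core was searched on both strands, and no core contains another. Of 32851 RefSeq windows of 250 bases, the ETS core CGGAAG was in 13.6%. The forkhead core TGTTTAC was in 3.17% of the same windows. The SOX core was in 10.7% of them and the GATA core in 9.99%. The 2 forkhead windows had a GC content of 72.2% (Foxf2) and 73.0% (Foxc1), and the Erg window 47.4%. A match is a run of letters, and binding was not measured.

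The libraries held 35479306 to 48314458 molecules counted by unique molecular identifiers (UMIs), and 47239 of 56961 barcodes were kept as cells, with a median of 2901 to 6543 UMIs per cell across libraries. Any 2 libraries shared between 5 and 23 kept barcodes. Endothelial-like cells numbered 26317 in 9 clusters, each meeting all 11 endothelial markers, and made up 43.3 to 62.7% of the cells of a library. Of the endothelial zones, 4 were named from marker genes, and another group of 5004 cells met 5 arterial and 5 capillary markers and is called the zone between arterial and capillary. In endothelial-like cells, Lama4 stood at 45.9 and 44.8 CPM in its WT libraries and at 0.0598 in Lama4-/-. Lama5 stood at 42.4 and 41.9 CPM in its WT libraries and at 22.3 and 23.9 in Tek-Cre:Lama5-/-, so reads of the gene were still present there. Which exons were deleted is not given in the sources used here, and a 3' count outside them does not check the deletion.

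All 10 genes were detected in endothelial-like cells of every library. Of their UMIs in all kept cells, endothelial-like cells held 97.3% for Sox7, 97.6% for Sox17, 97.8% for Sox18, 97.3% for Erg, 97.9% for Foxq1, 97.5% for Gata2 and 97.7% for Zfp366. The shares were lower for Foxf2 (92.0%), Fli1 (84.3%) and Foxc1 (76.8%). These shares follow the mix of cells recovered as well as the level per cell, since endothelial-like cells were the most numerous class.

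Read per cell and thinned to 2000 UMIs, so that deep and shallow cells could be compared, 52.1% of 21835 endothelial-like cells held a Foxq1 molecule and 49.98% a Sox17 molecule. The same share was 39.5% for Gata2, 38.0% for Sox18, 37.8% for Fli1, 31.6% for Foxc1, 28.2% for Zfp366, 20.6% for Foxf2, 16.1% for Sox7 and 11.3% for Erg. Thinning left out 4482 shallower endothelial-like cells, and before thinning the shares ran from 22.5% (Erg) to 67.7% (Foxq1) at a median depth of 3467 UMIs. In oligodendrocyte-like cells, which should lack these genes, 0.02 to 0.41% of 4127 thinned cells held one of them, at a median depth of 6520 UMIs. A thinned endothelial-like cell held molecules of 3.25 of the 10 genes on average, 68.5% of them held 3 or more, and 1.92% held none. An oligodendrocyte-like cell held 0.0165 on average, and 98.4% held none.

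**Figure D1:**
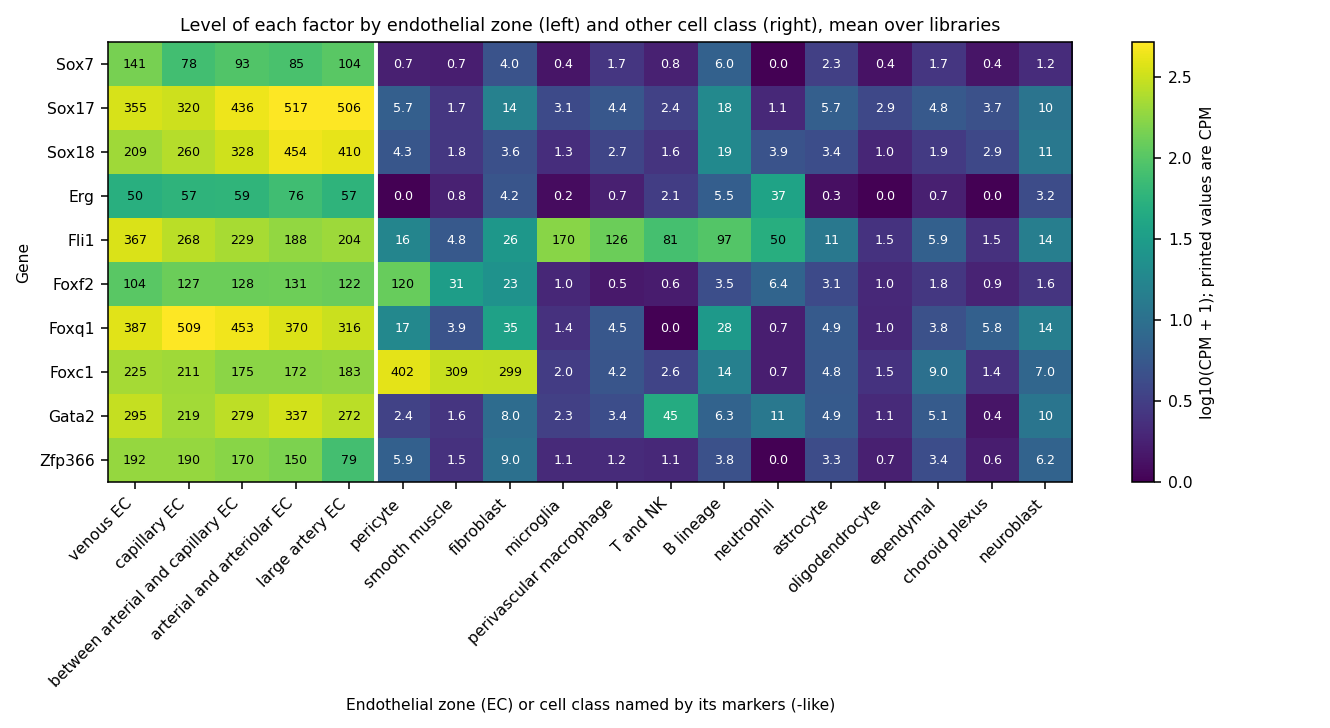
Mean level of each gene over the libraries (printed as CPM, with colour on a log10 scale) in the endothelial zones at the left and the other cell classes at the right. Most rows are brightest in the endothelial columns. Foxc1 extends to pericytes, smooth muscle and fibroblasts, Foxf2 to pericytes, and Fli1 to microglia and other immune classes. Some coloured squares of small classes, such as Erg in neutrophils and Gata2 in T and NK cells, rest on few UMIs or few libraries.

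Outside the endothelium the forkhead genes Foxc1 and Foxf2 were found in mural cells and Fli1 in immune cells. Foxc1 had a higher level in pericyte-like cells, at 402 ± 74.8 CPM (SD, n = 7 libraries), and in smooth muscle-like cells, at 309 ± 64.8 CPM, than in endothelial-like cells as a whole, at 197 ± 27.9 CPM. Its level in 176 fibroblast-like cells was 299 ± 66.1 CPM. By library, Foxc1 ran from 315 through a median of 403 to 515 CPM in pericytes, and from 166 through 203 to 232 CPM in endothelial-like cells, so the ranges did not overlap. Smooth muscle held 14.5% of all Foxc1 UMIs. Thinned to the same depth, 51.4% of 897 pericyte-like cells (exact 95% interval 48.1 to 54.7%) held Foxc1, against 55.5% of 1412 before thinning.

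Foxf2 was found in pericytes at 120 ± 29.1 CPM (SD, n = 7), with a range of 83.2 to 166 CPM that took in the endothelial range of 103 to 137 CPM. In smooth muscle it was lower, at 31.2 ± 6.15 CPM, and in fibroblasts it stood at 23.0 ± 17.9 CPM. Thinned, 21.6% of pericyte-like cells (19.0 to 24.5%) held Foxf2, close to the 20.6% of endothelial-like cells. Foxq1, the third gene of the span on chromosome 13, stood at 17.4 ± 8.22 CPM in pericytes and 3.92 ± 2.07 CPM in smooth muscle. Thinned, 3.34% of pericyte-like cells held Foxq1. Erg had 0 UMIs in all 1412 pericyte-like cells, where 3 counts would be 0.842 CPM. The upper exact 95% limit on pericyte-like cells with an Erg UMI was 0.41% after thinning. These limits cover counting error only.

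Between Foxq1 and Foxf2 lies the long noncoding RNA gene 1700018A04Rik (chr13:31565492-31625792, minus strand), whose start is just before that of Foxf2 on the other strand. It was counted at 8.96 ± 0.875 CPM in endothelial-like cells, highest in the capillary zone where libraries ran from 9.18 to 14.0 CPM. Pericytes held 2.38 ± 2.01 CPM of 1700018A04Rik and smooth muscle 0.198 ± 0.254 CPM. Oligodendrocyte-like cells held 0 UMIs of it. In Tek-Cre:Lama5-/- 1700018A04Rik stood at 8.17 and 7.90 scaled CPM in endothelial-like cells, against 8.64 and 8.75 in WT (edgeR adjusted p = 0.55).

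Fli1 reached 170 ± 54.4 CPM in microglia-like cells, 126 ± 28.9 CPM in perivascular macrophage-like cells, 96.7 ± 54.2 CPM in B lineage cells and 80.9 ± 38.1 CPM in T and NK cells. Thinned, 25.9% of 6337 microglia-like cells held Fli1, against at most 0.63% for each of the other 9 genes. Fli1 in microglia was 110 to 117 CPM in the 3 libraries of the Lama4 experiment and 195 to 227 CPM in the 4 of the Lama5 experiment. Its partner Erg had 10 UMIs in 7056 microglia-like cells. Erg had 4 UMIs in 93 neutrophil-like cells, and Gata2 had 45 UMIs in 169 T and NK cells. Of those 45, 37 came from the second WT library of the Lama4 experiment and 8 from Lama4-/-, and the other 5 libraries held none. The T and NK cluster was led by Prg2, ahead of Ccl5, Trbc1 and Gzma. Whether the Gata2 UMIs came from a few cells of another type in it was not tested.

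The zones were compared within each library, with the count of libraries that kept an order given in place of a test, since zones were drawn from these same cells (the 10 genes themselves were left out of the clustering). The SOXF genes did not all have their highest mean in the same zone. Sox17 and Sox18 were highest in arterial and arteriolar cells. Sox7 had its highest mean in venous cells, but these were above large arteries in 4 of 7 libraries, those of the Lama5 experiment. Erg and Gata2 peaked in the arterial zone, Fli1 and Foxc1 in the venous zone and Foxq1 in the capillary zone. Zfp366 was lowest in large arteries, and Foxf2 was nearly level.

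**Figure D2:**
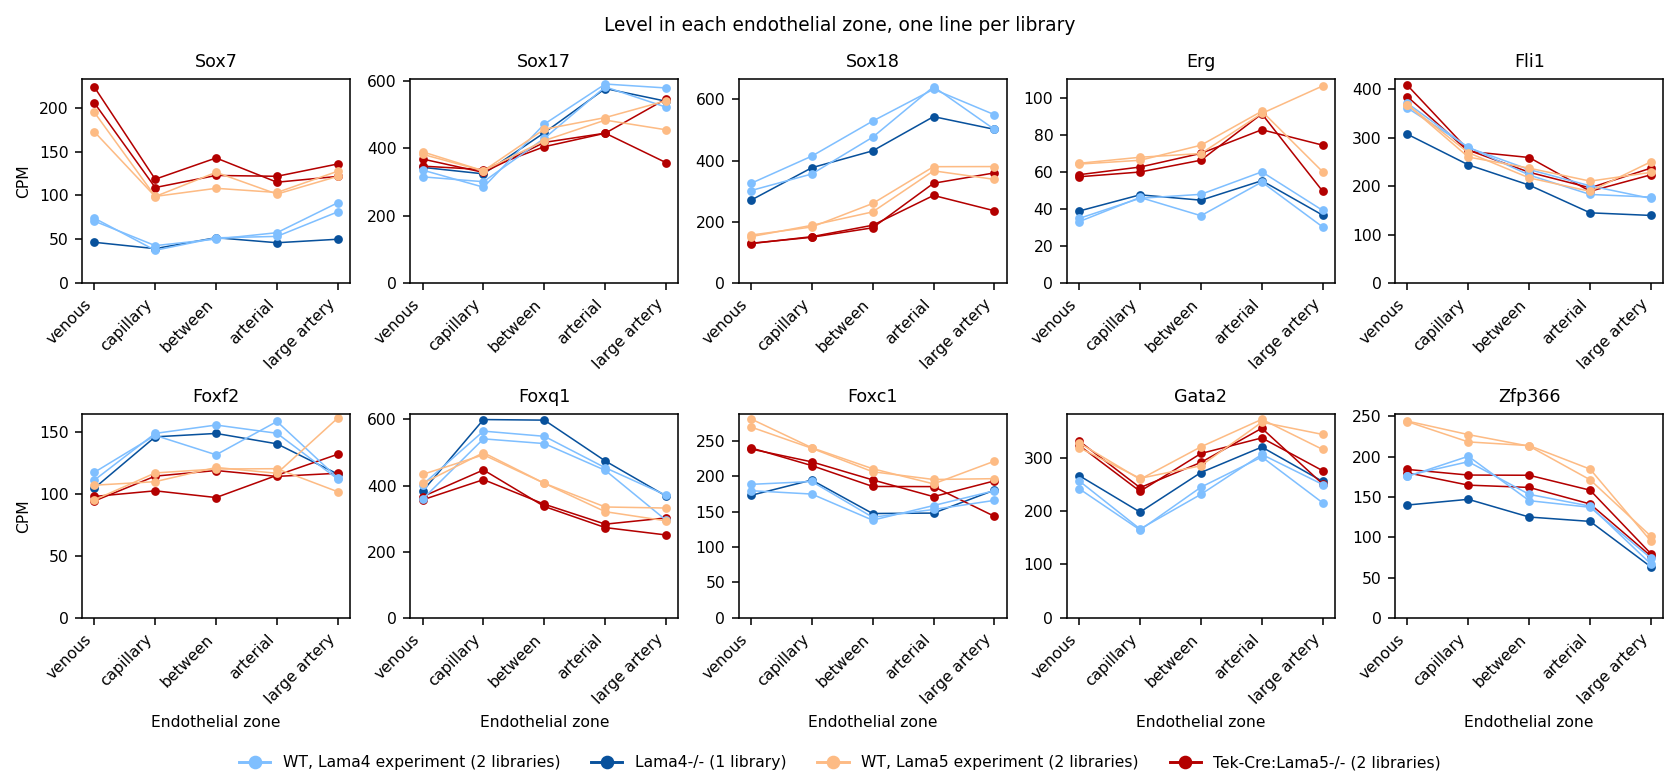
Level of each gene (CPM, linear axis) in 5 endothelial zones, 1 line per library, coloured by group. Fli1 falls from the venous to the arterial zone in all 7 libraries and Sox17 climbs from the capillary to the arterial zone in all 7, while Sox7 and Sox18 lie in separate bands for the 2 experiments.

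Sox17 stood at 517 ± 65.3 CPM (SD, n = 7) in the arterial zone, with a lowest, median and highest library of 445, 492 and 591 CPM. The capillary zone had 320 ± 19.8 CPM (285, 329 and 337), and the venous zone 355 ± 26.7 CPM (315, 347 and 390). The arterial level was 1.61 times the capillary and 1.46 times the venous level, in 7 of 7 libraries each, and the ranges did not overlap. Large arteries had 506 ± 75.8 CPM, and the arterial zone was above them in 5 of 7 libraries, so those neighbours were not separated. Venous cells were above capillary cells in 7 of 7 libraries by 34.3 CPM on average. The full order was arterial, large artery, between, venous, capillary.

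Sox18 stood at 454 ± 149 CPM in the arterial zone, 410 ± 112 CPM in large arteries, 328 ± 146 CPM between, 260 ± 117 CPM in capillaries and 209 ± 86.4 CPM in veins. Each step from arterial to between, to capillary and to venous held in 7 of 7 libraries, and the arterial level was 2.17 times the venous. The arterial zone was above large arteries in 5 of 7. The SDs are wide because the Lama4 experiment had 544 to 641 CPM in the arterial zone and the Lama5 experiment 286 to 380 CPM. With doublets kept, large arteries (458 CPM) ranked first.

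Sox7 had its highest mean in veins and its lowest in capillaries. It stood at 141 ± 74.5 CPM in veins and 77.7 ± 36.2 CPM in capillaries, and the venous level was 1.82 times the capillary level, in 7 of 7 libraries. Arterial cells had 85.4 ± 32.0 CPM, below veins in 7 of 7. By library the venous level was 70.6, 74.0 and 46.4 CPM in WT, WT and Lama4-/- of the Lama4 experiment, and 173, 195, 224 and 206 CPM in WT, WT and both Tek-Cre:Lama5-/- libraries. Large arteries had 104 ± 31.1 CPM, and veins were above them in the 4 libraries of the Lama5 experiment. In the 3 libraries of the Lama4 experiment large arteries were above veins.

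Over the 3 SOXF genes, 83.2% of thinned arterial cells held at least 1 of them. The share was 79.7% in large arteries, 76.3% between, 70.8% in veins and 68.7% in capillaries. For Sox17 alone the thinned share was 60.6% in arterial cells (interval 59.0 to 62.2%) and 44.5% in capillary cells (43.5 to 45.6%). For Sox18 it was 49.8% in arterial and 29.0% in venous cells, and for Sox7 22.8% in venous and 14.1% in capillary cells. The intervals cover counting error over cells of all libraries only.

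The ETS pair also peaked in different zones. Fli1 was highest in veins, at 367 ± 30.7 CPM (lowest 307, median 368, highest 408), and lowest in the arterial zone, at 188 ± 20.9 CPM (145, 189 and 210). Veins were above each other zone in 7 of 7 libraries with no overlap of ranges, by 1.37 times against capillaries (268 ± 12.8 CPM). The zone between had 229 ± 17.8 CPM and large arteries 204 ± 40.8 CPM, in order in 5 of 7 libraries. Large arteries were above the arterial zone in 4 of 7. Erg, in contrast, was highest in the arterial zone, at 75.7 ± 18.1 CPM, against 50.4 ± 14.1 CPM in veins, and was above veins in 7 of 7 libraries. Erg in the between zone, capillaries and large arteries had means of 58.7, 56.8 and 56.8 CPM, closer together than the spread over libraries.

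Among the forkhead genes, Foxq1 was highest in capillaries, at 509 ± 64.3 CPM (418, 500 and 600), above every other zone in 7 of 7 libraries. It was 1.12 times the level of the between zone (453 ± 104 CPM) and 1.61 times that of large arteries (316 ± 43.6 CPM), where the ranges did not overlap. Veins had 387 ± 28.7 CPM and arteries 370 ± 85.9 CPM, in order in 4 of 7. Foxc1 was 225 ± 44.1 CPM in veins and 211 ± 24.8 CPM in capillaries, in order in 5 of 7, and 172 ± 18.9 CPM in arteries, below veins in 7 of 7. Foxf2 had means of 131, 128, 127 and 122 CPM in the arterial, between, capillary and large artery zones, with no consistent order. Veins, at 104 ± 8.65 CPM, were below the arterial and the capillary zone in 7 of 7 libraries.

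Gata2 was highest in the arterial zone, at 337 ± 28.7 CPM (301, 337 and 372), and lowest in capillaries, at 219 ± 41.9 CPM (165, 237 and 261), 1.54 times apart with no overlap. Veins had 295 ± 38.4 CPM, below arteries and above capillaries in 7 of 7. Zfp366 stood at 192 ± 38.3 CPM in veins and 190 ± 28.8 CPM in capillaries, in order in 4 of 7. In large arteries it was 79.4 ± 14.0 CPM (63.1, 76.5 and 101), 2.42 times below veins and lower than in every other zone in 7 of 7 with no overlap. The thinned share of cells with Zfp366 was 13.1% of 428 large artery cells (10.0 to 16.7%) and 31.6% of 3447 venous cells (30.1 to 33.2%).

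When zones were instead assigned from marker UMIs of each cell, the top zone was the same for 8 of the 10 genes. Foxf2 (134 CPM) and Zfp366 (185 CPM) then peaked in capillaries.

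The genes whose pattern over 18 cell classes and zones was most like that of each member were sought among 13740 genes, by Pearson's r of the mean log2(CPM + 1). For Sox17 they were Adgrl4 (0.992), Fgd5 and She, and for Sox7 they were Ccm2l (0.988), Flt4 and Sox17 (0.986). For Sox18 they were Cyyr1 (0.988), Acer2 and Fgd5. For Erg they were Flt4 (0.983), Ly6c1 and Rasip1, for Foxq1 Flt1 (0.989), Adgrl4 and Tie1, and for Gata2 Unc45b (0.991), AU021092 and Fgd5. For Fli1 they were Lgals9 (0.966), Hhex (0.965) and Psmb9. For Foxf2 they were Adgra2 (0.973), Osmr and Arhgap29, and for Foxc1 Arhgap29 (0.982), Lama4 (0.973) and Hspb1. Zfp366 was most like 1700018A04Rik (0.986), Unc45b and Arhgef15. The 18 points share libraries and the zones share a cell type, so these values are a description.

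The comparison of Tek-Cre:Lama5-/- with its WT controls asks which genes differ between mice with and without this Lama5 deletion. In endothelial-like cells, Sox7 and Fli1 rose and Zfp366, Sox18, Foxq1 and Foxc1 fell, with fold changes between 0.817 (Zfp366) and 1.22 (Sox7). Sox17, Erg, Foxf2 and Gata2 did not pass the test. The SOXF genes thus gave 1 rise (Sox7), 1 fall (Sox18) and 1 gene (Sox17) not called. Levels in this comparison are CPM scaled between libraries by TMM, and the test was edgeR's quasi-likelihood test on UMIs summed per library, with Benjamini-Hochberg adjustment over 13156 genes.

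Sox7 stood at 118 and 123 scaled CPM in the WT libraries and at 152 and 140 in Tek-Cre:Lama5-/-. Both mutant libraries were above both controls, and the log2 fold change was 0.28 ± 0.036 (SE, n = 2 against 2; edgeR adjusted p = 9.5e-07). Fli1 stood at 263 and 262 in WT and at 288 and 292 in the mutants, a log2 fold change of 0.14 ± 0.024 (edgeR adjusted p = 8.0e-05). The libraries of the groups did not overlap for either gene. Such placement was common, and 8 of the 10 genes had both mutant libraries on 1 side of both controls. So did 60.2% of 9610 genes at a mean of 5 CPM or more, and 70.2% of the 3726 at 45 CPM or more.

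Zfp366 had the steepest fall, from 207 and 210 scaled CPM to 175 and 165, a log2 fold change of -0.29 ± 0.030 (edgeR adjusted p = 2.6e-08). Sox18 went from 228 and 229 to 191 and 205, a log2 fold change of -0.21 ± 0.030 (edgeR adjusted p = 5.4e-06). Foxq1 went from 403 and 404 to 369 and 362, a log2 fold change of -0.14 ± 0.022 (edgeR adjusted p = 2.6e-05). Foxc1 went from 221 and 226 to 213 and 210, a log2 fold change of -0.08 ± 0.026 (edgeR adjusted p = 0.034). In all 4 genes both mutant libraries were below both controls. The same held for Sox17 and Erg, which were not called, so this placement does not set the called genes apart. The Foxc1 call did not hold without any 1 of the 4 libraries (adjusted p 0.061 to 0.22).

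The remaining genes had values close to their controls. Sox17 stood at 387 and 390 in WT and 384 and 387 in the mutants, a log2 fold change of -0.01 ± 0.022. Gata2 stood at 295 and 302 against 300 and 303, Foxf2 at 108 and 111 against 111 and 106, and Erg at 71.7 and 70.1 against 67.0 and 68.7, a log2 fold change of -0.06 ± 0.041.

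**Figure D3:**
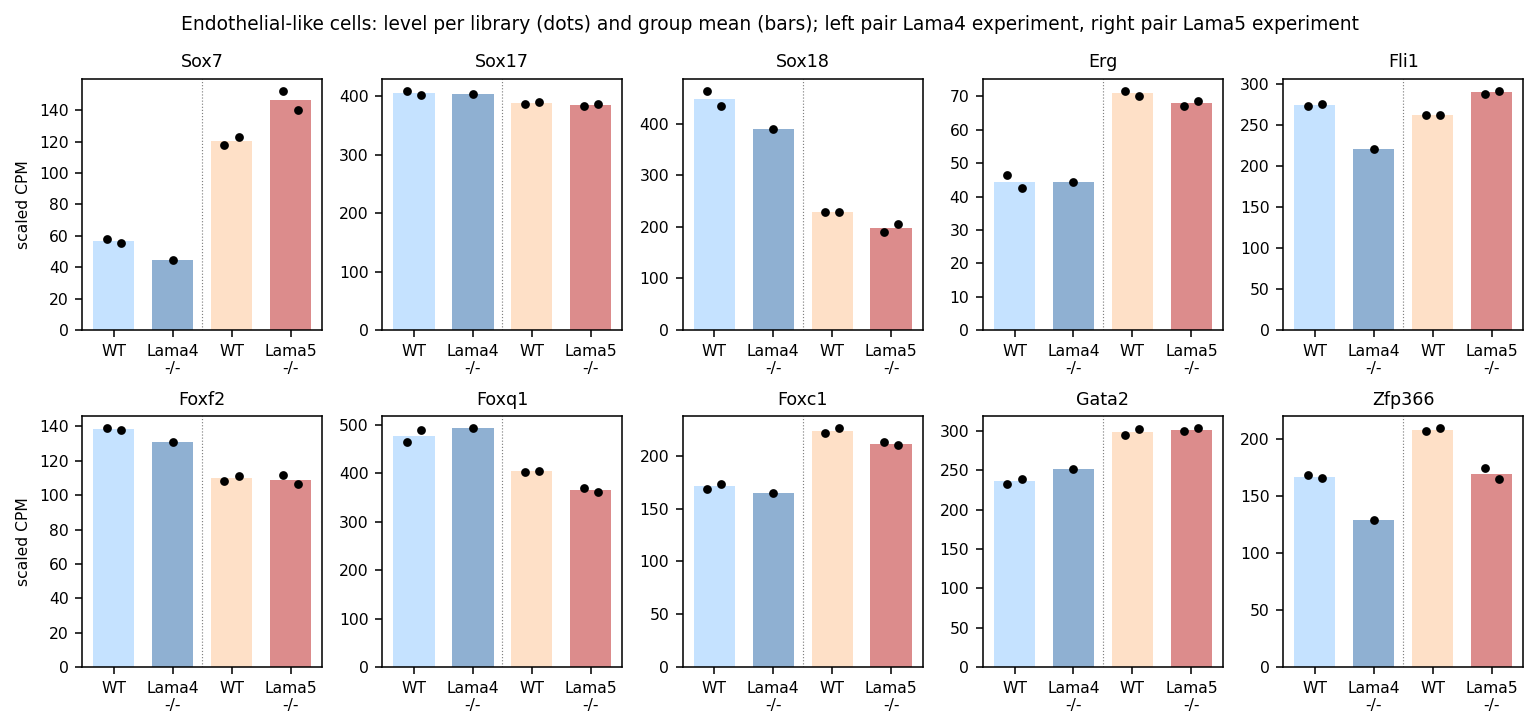
Level of each gene in endothelial-like cells (scaled CPM, each experiment scaled on its own), 1 dot per library and a bar from 0 to the group mean, with the Lama4 experiment at the left of each panel and the Lama5 experiment at the right. The mutant dots of the Lama5 experiment lie above both WT dots for Sox7 and Fli1 and below them for Zfp366, Sox18, Foxq1 and Foxc1. Of all genes at a mean of 45 CPM or more, 70.2% had both mutant libraries on 1 side of both controls.

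So 6 of the 10 genes were called, 2 higher and 4 lower, where 18.8% of all 13156 genes were called. The 10 are well measured, and among the 3603 genes at a mean of 45 CPM or more 38.2% were called. The median log2 fold change of the 10 was -0.04 and that of all genes -0.0024. Without composition scaling, using library totals only, Fli1 lost its call (log2 fold change 0.06, edgeR adjusted p = 0.060). Sox17 (-0.09, edgeR adjusted p = 0.0048) and Erg (-0.14, edgeR adjusted p = 0.011) were called lower in that setting. The share of higher among called genes was then 21.6%, against 55.9% with TMM, so the sign of small changes rests on the scaling. DESeq2 kept the calls of all but Foxc1, and called 960 of all genes where edgeR called 2473. P-values here compare libraries of pooled mice and cannot be taken to hold the spread between mice.

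Other measures differed between these groups too. In endothelial-like cells Gm42418, a gene that overlaps ribosomal RNA repeats, stood at 36015 and 35262 CPM in WT and 64283 and 70352 CPM in Tek-Cre:Lama5-/-. Lama4 stood at 29.7 and 31.5 CPM in WT and at 49.9 and 46.2 CPM in Tek-Cre:Lama5-/-. A low-UMI sub-cluster of endothelial-like cells held 10.4 and 10.3% of them in WT and 14.1 and 16.9% in the mutants. The summed level of 3 erythroid markers was 268 to 353 CPM in WT and 73.7 to 94.7 CPM in mutants, and that of 8 microglia markers 105 to 107 against 134 to 136 CPM. For 8 astrocyte markers it was 199 to 200 against 151 to 158 CPM, and for 7 oligodendrocyte markers 314 to 350 against 286 to 304 CPM. For 9 pericyte markers it was 32.5 to 40.5 against 38.2 to 52.9 CPM, and for 7 smooth muscle markers 24.4 to 26.9 against 26.4 to 32.2 CPM. Every marker of these lists had UMIs in both groups. The part of these measures in the results was not tested, except that without the low-UMI sub-cluster the same 5 genes other than Foxc1 were called (Foxc1 adjusted p = 0.058).

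By zone, Sox7 was higher and Sox18 lower in the mutants in each of the 4 larger zones, and both passed the test in all 4. The shares set beside the zone counts are over all genes tested, and shares at 45 CPM or more are not given by zone. In endothelial-like cells as a whole that share was 38.2%, above the 18.8% of all genes. In the capillary zone 5 of the 10 were called, where 9.98% of genes were. Sox7 went from 96.0 and 95.9 to 122 and 113 scaled CPM (log2 fold change 0.29 ± 0.064, adjusted p = 1.1e-04). Zfp366 went from 212 and 221 to 182 and 171 (-0.29 ± 0.048, adjusted p = 8.6e-08) and Sox18 from 183 and 178 to 155 and 155 (-0.22 ± 0.052, adjusted p = 7.4e-04). Fli1 (0.14) and Foxq1 (-0.11) were also called, but each lost its call without any 1 of the 4 libraries. The Sox7 call ended without mutant replicate 1 (adjusted p = 0.051) and that of Sox18 without WT replicate 1 (adjusted p = 0.057). With zones assigned from marker UMIs of each cell, Zfp366 was the 1 gene still called. Capillary cells were drawn unequally from 2 sub-clusters, 1 led by Slc16a1 and Car4 and 1 led by Adm and Tfrc. The second held 46.9 and 47.9% of capillary cells in WT and 60.2 and 62.8% in the mutants, and its part in these values was not tested.

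In the venous zone 6 of the 10 were called, where 11.3% of genes were, and they were the 6 genes called in endothelial-like cells as a whole. Zfp366 went from 239 and 239 to 188 and 185 scaled CPM (log2 fold change -0.36 ± 0.048, adjusted p = 3.3e-09). Sox7 went from 170 and 191 to 229 and 211 (0.29 ± 0.050, adjusted p = 4.5e-06). Fli1 went from 362 and 360 to 394 and 419 (0.17 ± 0.039, adjusted p = 8.9e-04). Foxq1 (-0.15), Sox18 (-0.19) and Foxc1 (-0.14) fell as well. Leaving out 1 library ended the call of Sox18 (without WT replicate 2 or mutant replicate 1, and also with zones from marker UMIs), Fli1 (without mutant replicate 2), Foxq1 (without WT replicate 1) and Foxc1 (without WT replicate 2 or either mutant).

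In the zone between arterial and capillary 5 of the 10 were called, where 6.12% of genes were: Sox18 (log2 fold change -0.31 ± 0.065), Sox7 (0.28 ± 0.085), Zfp366 (-0.23 ± 0.067), Fli1 (0.21 ± 0.063) and Foxq1 (-0.16 ± 0.050). In the arterial zone 2 of the 10 were called, where 5.42% of genes were. Sox7 went from 99.3 and 101 to 118 and 126 scaled CPM (0.28 ± 0.073, adjusted p = 0.012) and Sox18 from 359 and 371 to 293 and 338 (-0.21 ± 0.054, adjusted p = 0.011). The arterial Sox7 call ended without WT replicate 1 or mutant replicate 2, and that of Sox18 without WT replicate 2 or mutant replicate 1. Arterial Foxq1 (-0.16, adjusted p = 0.058) and Zfp366 (-0.17, adjusted p = 0.14) did not pass. In large arteries edgeR called 0 of the 10, where 0.592% of genes were called, and 0 had an unadjusted p under 0.05. That zone had at least 66 cells per library, and its standard errors ran from 0.13 to 0.26.

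**Figure D4:**
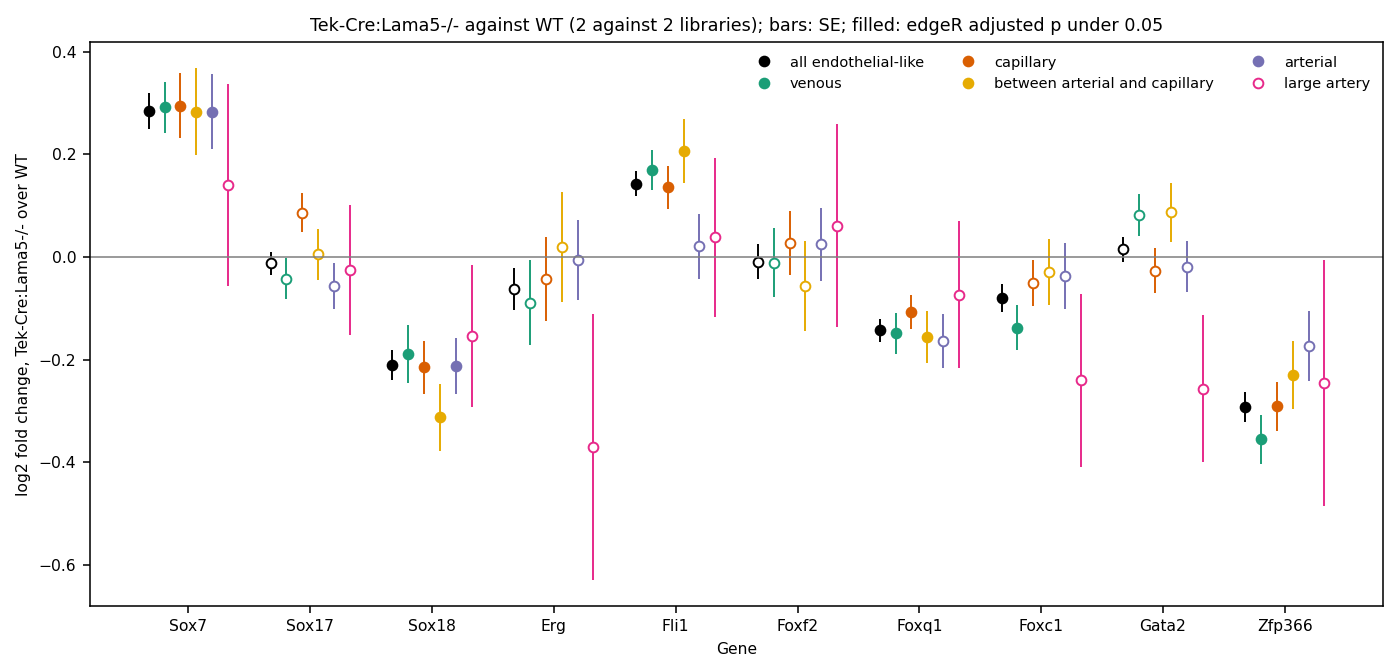
Log2 fold change of Tek-Cre:Lama5-/- over WT for each gene (vertical axis, bars of 1 SE), in all endothelial-like cells (black) and in 5 zones (colours). Filled points passed edgeR's adjusted p of 0.05, and all points of Sox7 lie above 0 and all points of Sox18 and Zfp366 below 0, with those of large arteries open.

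Whether the effect differed between zones was tested directly. For the arterial minus the capillary effect edgeR called 0 of the 10, where 0.266% of 11673 genes were called, and 1 had an unadjusted p under 0.05. That gene was Sox17, with a difference of -0.15 ± 0.057 (log2; edgeR adjusted p = 0.49). For the venous minus the capillary effect it called 0 of the 10, where 0.12% of genes were called, and again Sox17 alone had an unadjusted p under 0.05 (-0.14 ± 0.056, adjusted p = 0.68). For Sox7 the 2 differences were -0.02 ± 0.099 and -0.01 ± 0.084.

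Among the other vascular cells Foxc1 passed the test in smooth muscle. In smooth muscle-like cells it fell from 283 and 303 to 233 and 229 CPM by library totals, with a log2 fold change of -0.24 ± 0.070 (edgeR adjusted p = 0.041), 1 called of 3 tested, where 5.71% of genes were called. In pericyte-like cells it stood at 515 and 482 CPM in WT and 406 and 370 in the mutants. The log2 fold change there was -0.30 ± 0.12 (unadjusted p = 0.020, adjusted p = 0.41), so edgeR called 0 of 2 genes tested, where 0.269% of all genes were called, and 1 had an unadjusted p under 0.05. Foxf2 in pericytes had a log2 fold change of -0.26 ± 0.25. Fli1 was the 1 member tested in microglia-like cells (log2 fold change 0.10 ± 0.074, adjusted p = 0.43), where 13.8% of genes were called by edgeR. It was also the 1 tested in perivascular macrophages (0.32 ± 0.31, adjusted p = 0.78), with 1.61% of genes called, and neither unadjusted p was under 0.05. In astrocyte-like cells Fli1 was 11.2 and 7.47 CPM in WT and 30.4 and 16.8 in the mutants (edgeR adjusted p = 0.059, unadjusted p = 0.0093), where 14.3% of genes were called. Those levels rest on few molecules, since 3 counts would be 3.04 and 2.80 CPM in WT and 5.70 and 5.62 in the mutants. Carry-over of endothelial RNA into astrocyte-like cells was not tested.

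A list of 45 other endothelial transcription factors gives the setting. Of 42 tested in endothelial-like cells, 20 were called (13 higher, 7 lower), with a median log2 fold change of 0.06. Of all 13156 genes 18.8% were called, and 38.2% of the 3603 at a mean of 45 CPM or more. The called genes with the largest rises were Sox11 (log2 fold change 0.82, at 2.70 and 1.35 scaled CPM in WT and 3.83 and 3.37 in the mutants), Stat3 (0.31), Hhex (0.27), the ETS genes Etv6 (0.22) and Elf1 (0.18). Sox11 was close to the floor and also led the neuroblast-like cluster, and carry-over from those cells was not tested. Stat3, which relays cytokine signals, went from 123 and 127 to 154 and 156. Hhex, a homeobox factor of endothelial and blood precursors, went from 56.8 and 56.4 to 70.3 and 66.4. Among the falls were Klf2 (-0.26), Tsc22d1 (-0.20), Id1 (-0.12) and Tbx3 (-0.11). Klf2, which flow induces in endothelium, went from 4291 and 4290 to 3540 and 3639.

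Of 35 endothelial genes reported as targets of such factors, 19 were called (10 higher, 9 lower), with a median log2 fold change of 0.01. The shares to set beside this are again 18.8% of all genes and 38.2% of those at 45 CPM or more. The largest rises were Apln (2.07), Vcam1 (0.70), Angpt2 (0.47), Edn1 (0.30) and the Notch ligand Dll4 (0.17). Vcam1, a leukocyte adhesion molecule, went from 159 and 158 to 253 and 260 scaled CPM. Apln stood at 1.85 and 1.63 in WT and at 11.5 and 2.88 in the mutants, so its fold rests largely on 1 library. The largest falls were Ramp2 (-0.27), Notch4 (-0.22), Pdgfb (-0.21), Emcn (-0.12) and Slc2a1 (-0.11), the endothelial glucose transporter, which went from 3203 and 3250 to 2986 and 2989. By zone, 11 of 39 other transcription factors were called in capillaries (8 higher, 3 lower), 9 of 38 in veins (4 and 5), 7 of 37 in the between zone (4 and 3) and 8 of 38 in the arterial zone (4 and 4). Of the targets, 14 of 35 were called in capillaries (9 and 5), 13 of 33 in veins (7 and 6), 8 of 33 between (5 and 3) and 5 of 34 in the arterial zone (3 and 2). The shares of all genes called were 9.98% in capillaries, 11.3% in veins, 6.12% between and 5.42% in the arterial zone. Shares at 45 CPM or more are not given by zone.

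The Lama4-/- group has 1 library, so there is no test of genotype. Its values are CPM by library totals, and the ratios carry exact 95% intervals of counting error only. In endothelial-like cells as a whole, none of the 10 genes met the size rule, an absolute log2 ratio of 0.5 or more with the Lama4-/- library outside both controls, which 1.69% of 9624 genes met. Being outside both controls at any size was common, in 8 of the 10 genes and in 80.3% of all genes. Zfp366, Sox7, Fli1 and Sox18 were lower in the Lama4-/- library, and Gata2 and Foxq1 higher. Beside them, Lama5 stood at 61.8 and 63.4 CPM in the controls and at 76.1 CPM in the Lama4-/- library.

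**Figure D5:**
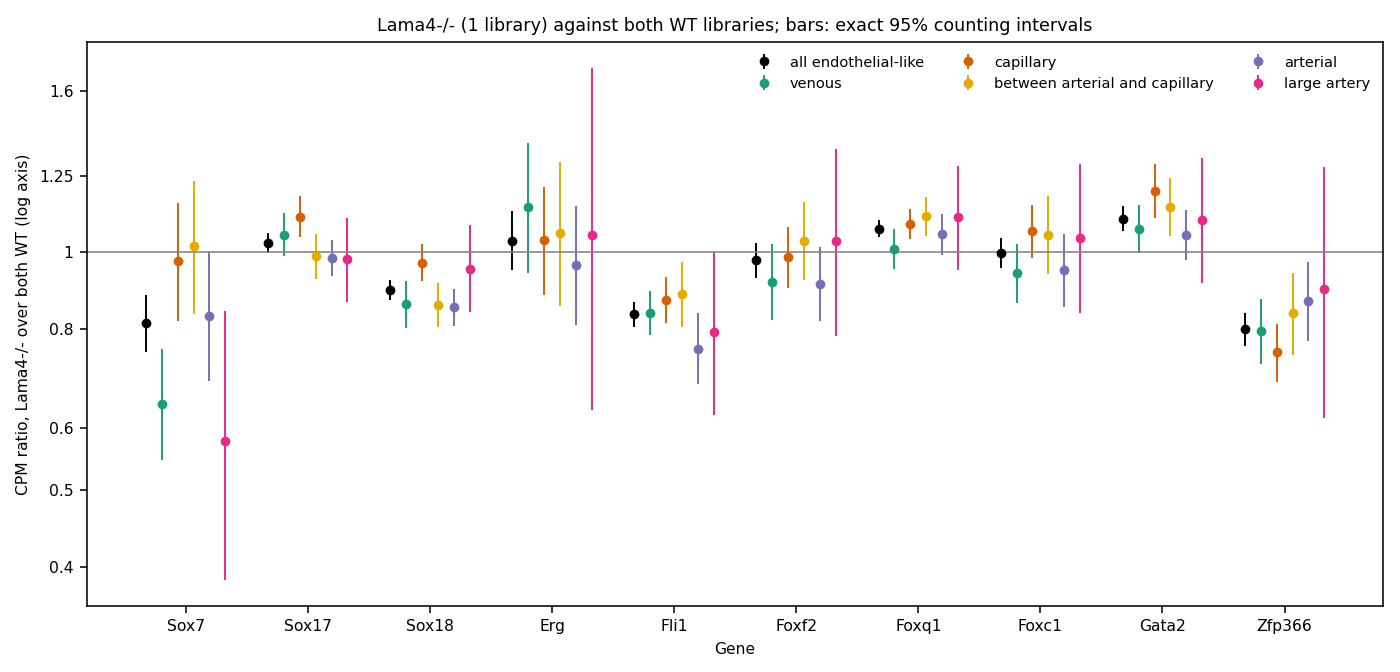
Ratio of the Lama4-/- library to the mean of its 2 WT libraries for each gene (log axis), in all endothelial-like cells (black) and in 5 zones (colours), with bars for exact 95% counting intervals. The black points of Zfp366, Sox7, Fli1 and Sox18 lie below 1 and those of Foxq1 and Gata2 above 1, and Sox7 has its lowest ratios in veins and large arteries.

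Zfp366 stood at 166 and 164 CPM in WT and 132 in Lama4-/-, a log2 ratio of -0.32 with an interval of the ratio from 0.762 to 0.840. Sox7 stood at 56.8 and 55.0 against 45.5 (ratio 0.814, 0.748 to 0.884), and Fli1 at 269 and 273 against 226 (0.835, 0.804 to 0.866). Sox18 stood at 457 and 430 against 398 (0.896, 0.871 to 0.922). For these 4 genes the Lama4-/- library lay below both controls. Gata2 stood at 229 and 237 against 257 (1.10, 1.06 to 1.15) and Foxq1 at 456 and 485 against 504 (1.07, 1.04 to 1.10). Sox17 (403 and 399 against 413) had a ratio of 1.03 (0.999 to 1.06), which moved to a log2 ratio of -0.01 with TMM scaling. Foxf2 (137, 137 and 134), Foxc1 (166, 172 and 169) and Erg (45.6, 42.1 and 45.5) had intervals that included 1.

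Within zones Sox7 met the size rule in veins and in large arteries, the 1 gene of the 10 to do so in each, where 5.12% and 24.4% of all genes met it. None of the 10 met it in the capillary, between and arterial zones, where 3.77%, 6.56% and 5.54% of genes did. In veins Sox7 stood at 70.6 and 74.0 CPM in WT and 46.4 in Lama4-/-, a ratio of 0.643 (0.546 to 0.754), and in large arteries at 91.6 and 81.2 against 49.9 (0.577, 0.385 to 0.843). In capillaries it stood at 42.6 and 37.3 against 39.2, a ratio of 0.975 (0.819 to 1.16), and between arterial and capillary the ratio was 1.02. Zfp366 had its lowest ratio in capillaries, at 194 and 200 against 147 CPM (0.747, 0.686 to 0.813), and 0.795 in veins. Fli1 had its lowest in the arterial zone, at 183 and 201 against 145 CPM (0.756, 0.681 to 0.837). Gata2 had its highest in capillaries, at 165 and 166 against 198 CPM (interval of the ratio 1.11 to 1.29). Whether a ratio differed between zones was not tested, since 1 library gives no replicate.

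Outside the endothelium, pericyte Foxc1 was 326 and 403 CPM in WT and 315 in Lama4-/- (ratio 0.867, 0.727 to 1.03), and smooth muscle Foxc1 378 and 357 against 382. Microglia Fli1 was 110 and 117 against 111 CPM. Of the other transcription factors, 1 of 37 at 5 CPM or more passed the size rule, Hhex, at 50.1 and 52.9 CPM in WT and 78.5 in Lama4-/-. None of 33 target genes did, where 1.69% of all 9624 genes passed it.

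The WT libraries of the 2 experiments differed in most of the 10 genes. With the endothelial-like cells of both WT groups scaled together, edgeR called 9 of the 10 genes, where 55.9% of 13286 genes were called, and 73.4% of the 3768 genes at 45 CPM or more. Sox7 was at 54.8 and 52.7 scaled CPM in the WT libraries of the Lama4 experiment and at 126 and 131 in those of the Lama5 experiment, a log2 fold change of 1.26 ± 0.039. Sox18 went the other way, from 441 and 412 to 244 and 245 (-0.80 ± 0.033). Erg (0.84 ± 0.049), Foxc1 (0.56 ± 0.031), Gata2 (0.51 ± 0.029) and Zfp366 (0.49 ± 0.030) were higher in the Lama5 experiment. Sox17 (0.11), Fli1 (0.11) and Foxf2 (-0.17) differed less, and Foxq1 did not pass (-0.07, adjusted p = 0.067). Gm42418 was 7337 to 7565 CPM in WT of the Lama4 experiment and 35262 to 36015 CPM in WT of the Lama5 experiment. Experiment, pool and any difference between the 2 sets of WT mice cannot be told apart here, and each mutant was therefore compared with its own controls only.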

How the data were processed

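Per the labels, perfused mouse cortex was digested with enzymes, myelin was removed, and cells were captured with 10x Chromium 3' v3 kits. The deposited matrices hold UMI counts per gene and barcode from Cell Ranger 3.1.0, per the file headers; the submitters' processing notes name Cell Ranger, Seurat 3.1 and mm10. Of the IDs, 99.6% are in GENCODE M21. Barcodes with under 500 genes (4352), with 15% or more mitochondrial UMIs (2355 more) and called as doublets at 0.8% per 1000 cells (3015) were left out. Cells were clustered at resolution 1 (scikit-learn 1.9.0, igraph 0.11.9, Python 3.11.15) without the 10 genes, Lama4, Lama5 and sex-linked genes, and named from marker lists; the thresholds for zone names were set after the data were seen, and 6 of 39 clusters stayed unnamed. Cells were thinned to 2000 UMIs for shares.

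UMIs were summed per library and class and tested with edgeR 4.0.16 in R 4.3.3 (quasi-likelihood, TMM, Benjamini-Hochberg over all genes tested, adjusted p under 0.05). Tested on simulated data for the Lama5 comparison in endothelial-like cells, it called 75 of 97 genes changed by a log2 of 0.5, 89 of 100 changed by 1 and 7 of 12819 unchanged. Those counts were drawn from means and dispersions fitted to these same libraries, with no shift in composition. Changes under a log2 of 0.5, such as those of the members, were not simulated, so this does not check their calls. Levels are CPM, counts scaled to the UMI total of a class or zone; the size rule for Lama4-/- adds 0.5 CPM and asks for a mean of 5 CPM. DESeq2 1.42.0, library totals, no low-count filter, each library left out, doublets kept, stricter cells (1000 genes, 10% mitochondrial), resolution 2, per-cell zones and the replicate block were alternatives.

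The members and lists were chosen with earlier results of these data known. The text names all 10 members and, in each list, up to 5 called genes with the largest change in each direction (1 such gene is not reported here), and for likeness the top 3 genes at 10 CPM or more in a class or zone. Libraries of a group differed beyond sampling noise (chi-square per gene 1.36 to 2.79), apart from the identical Lama4-/- pair, counted as 1.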

Additional observations from a re-analysis of the deposited data

Results flagged for a closer look

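In endothelial-like cells, 3 genes lay on one side of both controls in both Tek-Cre:Lama5-/- libraries and on the other side of both controls in the Lama4-/- library. Of all 9610 genes at a mean of 5 CPM or more, 25.8% were placed this way, and of the 3726 genes at 45 CPM or more 31.2%, so 3 of 10 is close to the share over all genes. The difference between the genotypes was not tested, and with 1 Lama4-/- library it has no replicate. On scaled CPM, the log2 ratio to the own controls was 0.28 in Tek-Cre:Lama5-/- and -0.35 in Lama4-/- for Sox7, 0.14 and -0.31 for Fli1, and -0.14 and 0.0489 for Foxq1.

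Within zones, the same opposite placement was seen for 3 of the 10 genes in veins (20.6% of all genes at 5 CPM or more), 2 in capillaries (19.3%) and 2 in the arterial zone (16.8%), again untested. Among genes at 45 CPM or more the shares were 26% in veins, 24.4% in capillaries and 21.4% in the arterial zone. The counts of members are close to these shares. In veins the ratios were 0.29 and -0.70 for Sox7, 0.17 and -0.31 for Fli1, and -0.0885 and 0.13 for Erg. In capillaries they were 0.14 and -0.24 for Fli1, and -0.11 and 0.0738 for Foxq1. In the arterial zone they were 0.28 and -0.29 for Sox7, and -0.16 and 0.0545 for Foxq1. In endothelial-like cells, 60.2% of all genes had both Tek-Cre:Lama5-/- libraries on 1 side of both controls and 79.2% had the Lama4-/- library outside both of its own.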

How the results depend on the processing

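In endothelial-like cells of the Lama5 comparison, Sox7, Zfp366, Sox18 and Foxq1 kept their direction and their call in all 12 alternatives, with log2 fold changes of 0.21 to 0.34, -0.37 to -0.25, -0.29 to -0.16 and -0.22 to -0.13. Fli1 lost its call with library totals only, and Foxc1 lost its call in 7 of 12 (adjusted p up to 0.37). DESeq2 called 960 genes in place of 2473, 10 in place of 20 of the other transcription factors and 10 in place of 19 targets; without 1 library 13 (without WT replicate 2) to 16 transcription factors were called. In the capillary zone, Zfp366 alone kept its call with zones from marker UMIs per cell. Some capillary, venous and arterial calls ended without 1 library. These fits hold fewer cells or libraries, and the share of all genes called in them is not given here. The between and large artery zones were not refitted. In the WT comparison, DESeq2 ended the Fli1 call (adjusted p = 0.059), and without WT replicate 1 of the Lama4 experiment Foxq1 was called. TMM scaling moved 7 Lama4-/- log2 ratios by more than the spread of the controls, Sox17 to -0.01. The replicate numbers are not stated to mark a shared batch, and deviations of same-numbered libraries correlated at -0.085; with the replicate block 6 members and 2611 genes were called, and in the arterial zone 3 members. Depth limits Erg and Sox7 in large arteries, and p-values cover libraries of pools, not mice.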

Other observations

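Between the WT libraries of the 2 experiments, 31 of 43 other transcription factors tested were called (23 higher in the Lama5 experiment, 8 lower). The shares to set beside this are 55.9% of all genes and 73.4% of those at 45 CPM or more. The largest rises were Prox1 (log2 fold change 2.08), Sox11 (1.85), Klf4 (1.53), Sox4 (1.47) and Bcl6b (0.77). Klf4, a flow-responsive factor, went from 1153 and 1175 to 3380 and 3325 scaled CPM. Sox4, a SOXC factor, went from 49.6 and 54.4 to 147 and 140. Prox1, the lymphatic endothelial factor, stood at 0.333 and 0.208 against 0.962 and 1.39, close to the floor. Sox11 was also close to the floor, and it led the neuroblast-like cluster. The largest falls were Foxc2 (-1.40), Meox1 (-0.80), Lyl1 (-0.78), Tsc22d1 (-0.46) and Lmo2 (-0.28).

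Of the 35 target genes, 31 were called (13 higher, 18 lower), beside 55.9% of all genes and 73.4% of those at 45 CPM or more. Endou (1.43), Cxcr4 (1.39), Efnb2 (0.91), Edn1 (0.69) and Abcb1a (0.54) were higher in the Lama5 experiment, and Vwf (-1.09), Notch4 (-0.61), Mfsd2a (-0.52), Egfl7 (-0.52) and Vcam1 (-0.49) lower. Vwf went from 361 and 352 to 165 and 170 scaled CPM, and the arterial ligand Efnb2 from 52.9 and 55.8 to 106 and 98.8.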
